A study of Caenorhabditis elegans with 10 samples.

Results

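The R9QG265R strain of Caenorhabditis elegans carried a G265R change in unc-104 on top of the R9Q change, and its 2 libraries were compared with the 2 libraries of the R9Q strain. These 4 libraries were taken by strain name from a series of 10, in which whole untreated animals of 5 strains gave 2 libraries each. The other strains were wild type (WT), R9QT102I, which carried a T102I change together with R9Q, and R9Qunc-16, which joined the R9Q allele to an unc-16 mutation. All strains other than WT therefore shared R9Q. The series was designed to set the level of unc-104 mRNA in R9Q and its suppressed derivatives beside WT. Age, number of animals, culture, strain background and how many isolates a strain represents were not given, so p-values measured the spread between these samples, which may be technical.

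UNC-104 is the founding member of the kinesin-3 family, plus-end-directed motors that walk along microtubules. In worm neurons it carries synaptic vesicle precursors from the cell body to the synapse, and strong loss of its function leaves presynaptic terminals short of vesicles and the animals uncoordinated. An intragenic suppressor is a second change in the same gene that relieves the effect of the first. UNC-16, the worm homolog of JIP3, is a scaffold that binds kinesins and JNK kinases and regulates which organelles enter the axon.

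Between 6239272 and 7160785 reads were assigned to genes per library in the 4 libraries. The R9QG265R libraries differed from each other in state as well as strain label. The mitochondrial genome took 5.51% of assigned counts in replicate 1 and 0.0200% in replicate 2, against 3.59% and 3.69% in R9Q. Body-shape collagens, which are made in pulses with each molt, took 0.00124% in replicate 1 and 0.171% in replicate 2, against 0.00543% and 0.00500% in R9Q. Genes with at least 1 count numbered 17140 and 14914 in R9QG265R against 18065 and 18335 in R9Q. Within R9QG265R, 4091 of 12267 tested genes (33.4%) differed more than 2-fold between replicates, while 323 did so within R9Q. A low mitochondrial share was also seen in replicate 1 of R9QT102I and replicate 2 of R9Qunc-16. Markers of neurons, body wall muscle, intestine, epidermis and pharynx all had counts, as a whole-animal label requires, and fewer cells of a type cannot be told apart from less RNA per cell in such samples. Neuronal markers (9 of 10 with a count) summed to 0.0778% and 0.0729% of counts in R9QG265R and 0.120% and 0.109% in R9Q, most of it from the single gene snb-1. Intestinal markers (6 of 9) summed to 0.0898% and 0.389% in R9QG265R against 0.0661% and 0.0665% in R9Q. The protease gene cpr-1 made up most of the intestinal sum in R9QG265R, and without it the intestinal markers held 0.0307% and 0.0246% in R9QG265R against 0.0375% and 0.0370% in R9Q.

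**Figure D1:**
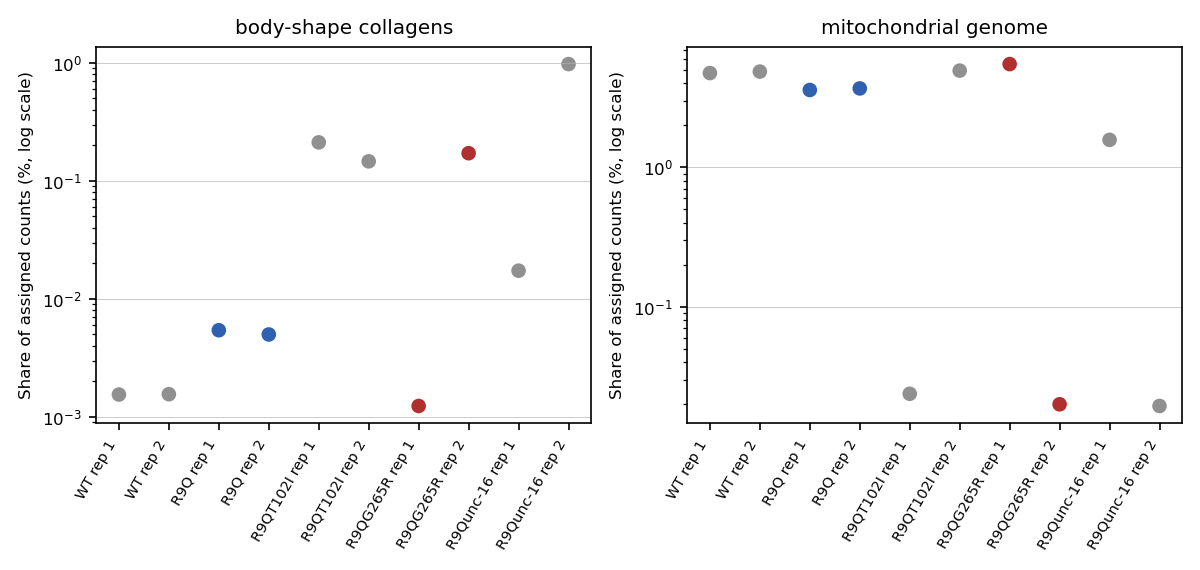
Share of assigned counts in percent on a log axis, 1 point per library, for body-shape collagens (left) and the mitochondrial genome (right), with R9QG265R in red, R9Q in blue and the other strains in grey. R9QG265R replicate 2 stands apart from its partner and from R9Q at 0.171% body-shape collagen and 0.0200% mitochondrial counts, while replicate 1 has 0.00124% and 5.51%.

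The level of unc-104, which carries the R9Q, T102I and G265R changes, could not be read. unc-104 (ce11, chromosome II, positions 6994987 to 7010625) had 0 counts in all 10 libraries, and 0 counts allow up to 0.386 to 0.502 CPM, that is, counts per 1000000 of the TMM-scaled library size (3 counts, covering counting error only). The deposited tables count reads per transcript, unc-104 has 4 annotated transcripts, and 57.7% to 61.8% of aligned reads were set aside as ambiguous, so its level was not measurable in these tables. unc-16 (chromosome III, positions 9546258 to 9557450) had 32 and 40 counts in R9Q but 6 and 0 in R9QG265R, so that the R9Q strain lay higher in both libraries. The ratio of summed counts, scaled for library size, was 10.1 (exact 95% interval 4.4 to 28.3, covering counting error only), and the log2 fold change of -3.29 did not pass the test (SE 1.26, edgeR adjusted p = 0.511). Nearly all of these counts came from 1 of its 20 annotated transcripts (30 and 39 in R9Q, 6 and 0 in R9QG265R), and 18 transcripts had no count in any library, so the ratio is the value of a single transcript. The share of unc-16 reads lost as ambiguous was not known. unc-16 had 26 and 42 counts in WT, 5 and 26 in R9QT102I and 40 and 11 in R9Qunc-16. In R9QT102I, R9QG265R and R9Qunc-16 the lower count was that of the library with a low mitochondrial share, and the part of that state was not tested.

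No gene passed the test between R9QG265R and R9Q. edgeR's quasi-likelihood test on all 10 libraries called 0 of 12267 genes (0%) at an adjusted p under 0.05, with 1069 genes at an unadjusted p under 0.05 and a lowest adjusted p of 0.0957. DESeq2's Wald test on the same counts called 229 genes, 171 higher and 58 lower. A fit without the 3 libraries of low mitochondrial share left 1 library each of R9QG265R, R9QT102I and R9Qunc-16. Only the WT and R9Q pairs set the spread in that fit. Its calls were far more numerous, and are given at the end only to show the dependence on the libraries. Because the count of calls moved this far with the tool and the libraries, the values of each library are given throughout. A gene was taken as higher when both R9QG265R libraries exceeded both R9Q libraries in CPM, and as lower in the opposite case. By this rule 2604 genes (21.2%) were higher and 2726 (22.2%) lower, 5330 (43.4%) in all. A further 4194 (34.2%) had 1 R9QG265R library above and 1 below both R9Q libraries, and in the remaining 2743 (22.4%) at least 1 library fell within the R9Q range. With the added demand of a 2-fold gap between the nearest libraries, 162 genes (1.32%) were higher and 230 (1.87%) lower, and 194 (1.58%) were at least 2-fold above in 1 library and 2-fold below in the other. The plot of each R9QG265R library against the R9Q mean shows the large group of genes on which the libraries lay on opposite sides.

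**Figure D2:**
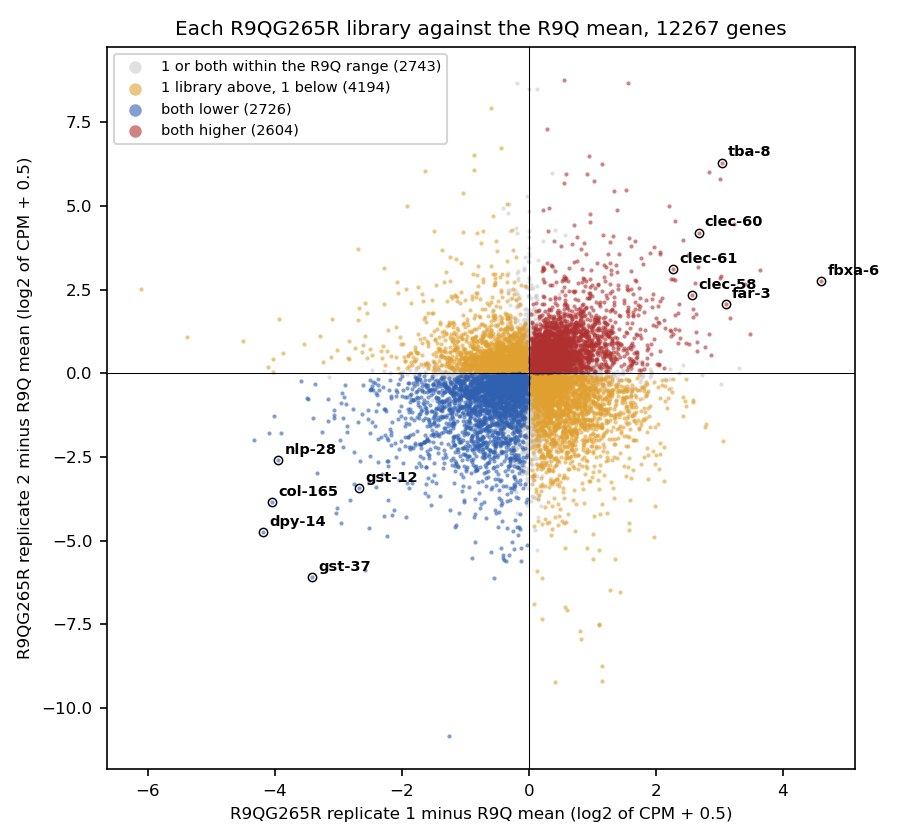
Difference of R9QG265R replicate 1 (horizontal) and replicate 2 (vertical) from the R9Q mean, in log2 of CPM + 0.5, for 12267 tested genes coloured by the side on which both libraries lie. The 2604 red and 2726 blue genes lie on the same side in both libraries, whereas the 4194 orange genes move apart, and named genes are ringed.

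The 162 genes higher by at least 2-fold included 156 protein-coding genes, and the 230 lower ones 196 protein-coding genes, 12 pseudogenes and 22 noncoding genes. Chromosome V held 63 of the 162 (2.18% of its tested genes) and 72 of the 230 (2.49%). Within 1 Mb on either side of unc-104, 309 genes were tested, of which 2 were higher and 3 lower by at least 2-fold.

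Of the 12 genes with the widest gap above R9Q, 4 were C-type lectins, secreted proteins with a sugar-binding type of domain. The paired C-type lectins clec-60 and clec-61, known from worm responses to bacterial infection, lie next to each other (chromosome II, positions 10480043 to 10481874, and 10488730 to 10490537). clec-60 measured 38.7 and 30.9 CPM in R9Q and 223 and 646 CPM in R9QG265R. clec-61 measured 8.35 and 8.36 CPM and 42.2 and 75.8 CPM. All R9QG265R values lay above all R9Q values for both, and WT lay below R9Q, at 1.67 and 1.55 CPM for clec-60 and 0.91 and 0.620 CPM for clec-61. The other strains with R9Q also lay above R9Q alone. clec-60 read 54.8 and 58.2 CPM in R9QT102I and 538 and 1000 CPM in R9Qunc-16, and clec-61 33.6 and 29.5 and 101 and 142 CPM. The log2 fold change from R9Q was 3.64 (SE 0.53, edgeR adjusted p = 0.133) for clec-60 and 2.82 (SE 0.35, edgeR adjusted p = 0.0957) for clec-61. R9QG265R was also set against WT, where edgeR called 57 of 12267 genes (0.465%). That count was 0 without either WT library or with the 4 libraries alone, 8 without either R9Q library, 21 and 26 without R9QT102I replicates 1 and 2, 18 without R9QG265R replicate 1 or with the replicate block, and 140 and 149 without R9Qunc-16 replicates 1 and 2. There clec-60 was 8.06 higher on the log2 scale (edgeR adjusted p = 0.00679) and clec-61 6.23 (edgeR adjusted p = 0.00407). The related lectins clec-58 (2.49 and 3.34 CPM in R9Q, 19.6 and 16.6 in R9QG265R) and clec-169 (1.17 and 2.83 and 12.1 and 36.7) were also higher in both libraries. Reads from near-identical lectin copies could be split or dropped by the counting, so single members are uncertain.

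cpr-5, a cathepsin B-like cysteine protease, read 73.1 and 62.2 CPM in R9Q, 336 and 1607 CPM in R9QG265R and 1306 and 1249.6 CPM in WT, so only replicate 2 reached the WT level. fbxa-6, an F-box protein of the kind that recruits targets to ubiquitin ligases, read 2.05 and 1.93 CPM in R9Q against 60.1 and 16.2 CPM in R9QG265R and 39.0 and 46.6 CPM in WT. The WT values lay between both R9QG265R values, while R9Q lay far below them. clc-11, a claudin-like membrane protein, read 1.90 and 3.34 CPM in R9Q, 27.95 and 66.0 CPM in R9QG265R and 13.04 and 13.3 CPM in WT. far-3, which encodes a secreted fatty acid and retinol binding protein, read 22.8 and 21.1 CPM in R9Q, 192 and 93.8 CPM in R9QG265R, 548 and 431 CPM in R9QT102I and 30.5 and 28.4 CPM in WT, so R9QT102I was higher still. Its log2 fold change from R9Q was 2.70 (SE 0.38, edgeR adjusted p = 0.125). The neighbouring genes spig-4 (2.64 and 1.80 CPM in R9Q, 12.8 and 18.1 in R9QG265R) and spig-5 (2.93 and 1.93 and 17.1 and 18.2) were higher together, with similar values in both R9QG265R libraries.

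A pair of the leading genes rested on few R9Q reads. dct-19 had 1 and 1 count in R9Q against 29 and 210 in R9QG265R, a ratio of summed counts of 143 (exact 95% interval 39.1 to 1185). tba-8, an alpha-tubulin, had 1 and 5 counts against 41 and 401, a ratio of 87.9 (40.1 to 241). It was also above R9Q in the other strains with R9Q, at 60.5 and 43.3 CPM in R9QT102I and 6.89 and 132 CPM in R9Qunc-16. In both genes replicate 2, the library with high body-shape collagen, held most of the reads, and the part of molting in these values was not tested.

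**Figure D3:**
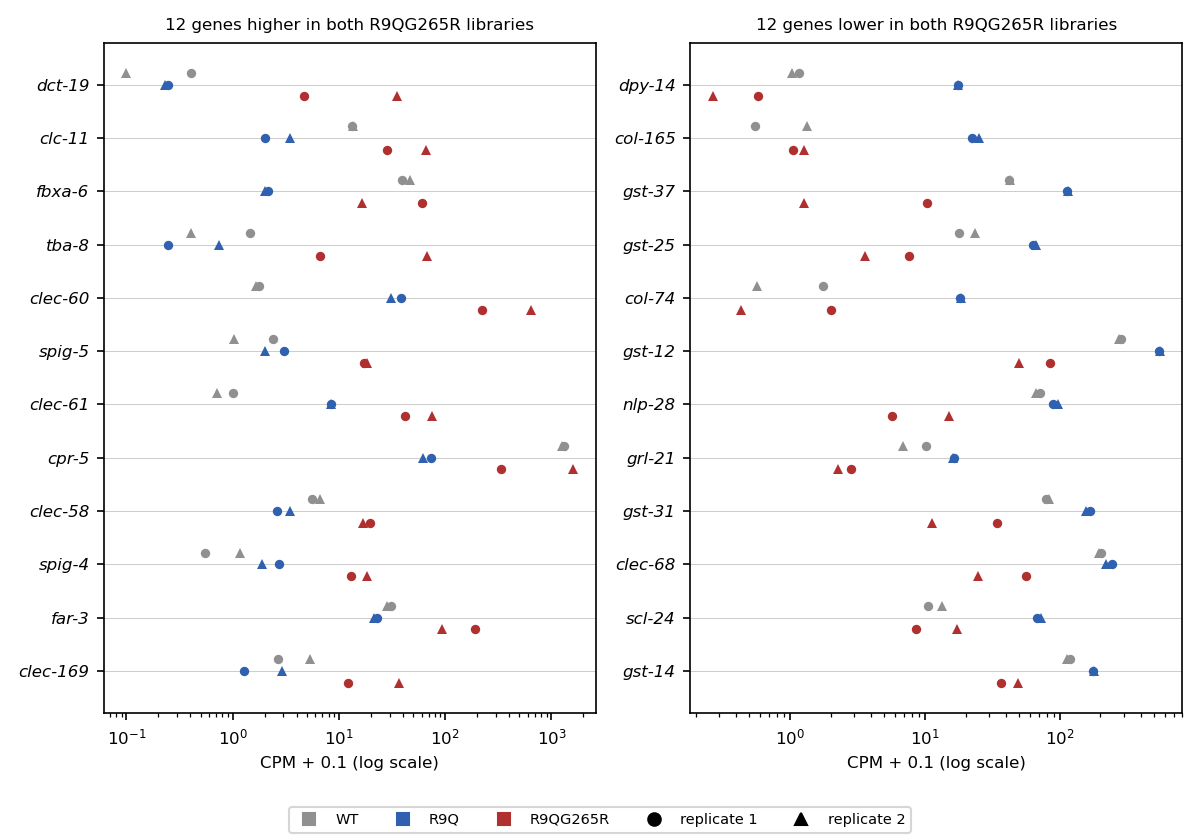
CPM + 0.1 on a log axis for the 12 genes with the widest gap above (left) and below (right) both R9Q libraries, with circles for replicate 1 and triangles for replicate 2 of WT (grey), R9Q (blue) and R9QG265R (red). The genes were chosen for lack of overlap between red and blue, and the R9Q pair is tighter than the R9QG265R pair in most genes.

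Of the 12 genes with the widest gap below R9Q, 3 were cuticle collagens and 5 were glutathione transferases. dpy-14 (chromosome I, positions 6843589 to 6845142), a cuticle collagen required for normal body length, had 119 and 135 counts in R9Q (17.4 and 17.4 CPM) and 3 and 1 in R9QG265R (0.479 and 0.167 CPM). The ratio of summed counts was 53.2 (exact 95% interval 20.5 to 197), and WT, at 1.06 and 0.930 CPM, also lay far below R9Q. The log2 fold change was -5.66 (SE 0.64, edgeR adjusted p = 0.0957). The cuticle collagen col-165 (chromosome X, positions 4353618 to 4354852) read 22.3 and 25.2 CPM in R9Q, 0.958 and 1.17 CPM in R9QG265R and 0.46 and 1.24 CPM in WT, with a log2 fold change of -4.46 from R9Q (SE 0.50, edgeR adjusted p = 0.0957). col-74 read 18.01 and 18.4 CPM in R9Q, 1.92 and 0.335 CPM in R9QG265R and 1.67 and 0.465 CPM in WT. For these 3 collagens R9QG265R lay near WT and R9Q stood above both, and R9QT102I was as low, at 0.314 and 0.284 CPM for dpy-14, 0.471 and 0.567 CPM for col-165 and 2.04 and 0.567 CPM for col-74. R9Qunc-16 kept higher values of 19.5 and 46.7, 11.3 and 10.6 and 15.5 and 6.95 CPM.

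Glutathione transferases conjugate glutathione to reactive compounds and are part of xenobiotic detoxification. gst-12 (chromosome II, positions 13616682 to 13618061) read 545 and 549 CPM in R9Q and 85.1 and 50.1 CPM in R9QG265R, below the 283 and 276 CPM of WT. R9QT102I (72.7 and 50.2 CPM) and R9Qunc-16 (65.0 and 40.3 CPM) had similarly low gst-12 values. The log2 fold change of gst-12 from R9Q was -3.02 (SE 0.36, edgeR adjusted p = 0.0957). gst-37 read 112 and 115 CPM against 10.22 and 1.17 CPM, gst-25 62.97 and 66.0 against 7.51 and 3.52, gst-31 168 and 157 against 34.3 and 11.2 and gst-14 176 and 178 against 36.3 and 48.7, R9Q first. In each of these genes R9QG265R lay below WT as well, whose values were 42.2 and 42.9 CPM for gst-37 and 119 and 114 CPM for gst-14. gst-12 and gst-14 adjoin on chromosome II (13614781 to 13618061), and similar gene copies make their separate counts uncertain. Of 44 of 49 listed glutathione transferases that could be tested, 19 (43.2%) were lower and 8 (18.2%) higher in both libraries. Libraries lay on opposite sides in 13 (29.5%), and 9 of the lower genes were lower by at least 2-fold. Over all tested genes the shares were 22.2% lower, 21.2% higher, 34.2% on opposite sides and 1.87% lower by at least 2-fold. The median log2 fold change of the list was -0.41 against 0.01 over all tested genes, and none of its genes passed edgeR's test. Its median difference from R9Q was -0.22 and -0.54 in replicates 1 and 2.

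Other genes with a wide gap below R9Q were secreted or surface products. nlp-28, of the nlp-29 cluster of epidermal antimicrobial peptides, read 89.6 and 97.4 CPM in R9Q and 5.59 and 15.1 CPM in R9QG265R. grl-21, a ground-like protein related to hedgehog, read 16.4 and 16.1 CPM against 2.72 and 2.18 CPM. scl-24, an SCP-like secreted protein, read 67.8 and 71.9 CPM against 8.47 and 17.2 CPM. clec-68 went the other way from the lectins described above, with 244 and 221 CPM in R9Q and 55.6 and 24.8 CPM in R9QG265R. Its neighbour on chromosome IV, clec-70, was higher in R9QG265R, at 1.32 and 1.67 CPM in R9Q and 9.26 and 6.19 CPM in R9QG265R. Among all 24 genes with the widest gaps, edgeR called 0 and DESeq2 called 21 (10 higher and 11 lower), against 229 calls by DESeq2 over all 12267 tested genes. The 24 were chosen for wide gaps in these same libraries, so their calls are not separate support. Leaving out R9Qunc-16 replicate 1 gave 2 calls among the 24 and leaving out its replicate 2 gave 3, although this strain is not in the comparison and only shares its estimate of spread.

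For 38 of 12267 genes (0.310%), edgeR separated R9Q from WT, and the level of these genes was read in R9QG265R. The count of 38 was 0 without either R9Q library, 3 and 1 without WT replicates 1 and 2, 5 and 4 without R9QT102I replicates 1 and 2, 95 and 97 without R9Qunc-16 replicates 1 and 2, 3 with the replicate block and 4158 with the 4 libraries alone. The comparisons share the R9Q libraries, so the values are set side by side and their directions are not compared. Both collagens among them with less RNA in R9Q lay at the WT level in R9QG265R. col-144 (chromosome V, positions 9159586 to 9160642) read 886 and 918 CPM in WT, 298 and 297 CPM in R9Q and 883 and 1095 CPM in R9QG265R, a log2 fold change from R9Q of 1.73 (SE 0.21, edgeR adjusted p = 0.0957). col-117 read 211 and 208 CPM in WT, 94.6 and 85.3 CPM in R9Q and 221 and 217 CPM in R9QG265R. Another collagen outside the 38, col-10, read 1110.3 and 1093, 395 and 376 and 1196 and 2000.2 CPM in the same order of strains, and was chosen after its values were seen. anmt-3, an amine N-methyltransferase, read 200.1 and 208 CPM in WT, 56.7 and 56.3 CPM in R9Q and 129.9 and 164.7 CPM in R9QG265R, between both other strains. sod-5, a copper-zinc superoxide dismutase, read 0.758 and 1.08 CPM in WT, 8.20 and 7.59 CPM in R9Q and 2.08 and 3.35 CPM in R9QG265R, again between them.

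Several of the 38 genes, among them genes of fatty acid and xenobiotic metabolism, lay below WT and R9QT102I in R9QG265R, near or above the R9Q level. cpt-3 (chromosome III, positions 2082819 to 2088314), a carnitine palmitoyltransferase homolog of the fatty acid import step of mitochondria, read 51.7 and 60.8 CPM in WT, 3.51 and 3.47 CPM in R9Q, 4.15 and 4.35 CPM in R9QG265R and 41.8 and 42.7 CPM in R9QT102I. cyp-13B1 (chromosome X, positions 13406674 to 13409643), a cytochrome P450, read 219.6 and 201 CPM in WT, 13.2 and 16.3 CPM in R9Q, 27.95 and 28.8 CPM in R9QG265R and 164 and 194 CPM in R9QT102I. oac-14, an O-acyltransferase homolog, read 37.2 and 35.5, 5.13 and 4.63, 5.59 and 5.69 and 27.5 and 28.5 CPM in that order. In all 3 genes the R9QG265R pair was tight and lay far below R9QT102I. Raw counts in R9Q and R9QG265R were 24 and 27 against 26 and 26 for cpt-3, and 35 and 36 against 35 and 34 for oac-14. Their log2 fold changes from R9Q were 0.28 (SE 0.26, edgeR adjusted p = 0.83) and 0.21 (SE 0.26, edgeR adjusted p = 0.89), so no rise above R9Q was resolved. That of cyp-13B1 was 0.94 (SE 0.20, edgeR adjusted p = 0.269). spp-9 (chromosome X, positions 11487784 to 11488203), a saposin-like protein, read 46.9 and 45.9 CPM in WT, 0.439 and 0.386 CPM in R9Q, 4.15 and 2.68 CPM in R9QG265R and 129 and 60.8 CPM in R9QT102I. Its R9Q values rest on 3 and 3 counts, against 26 and 16 in R9QG265R. nspg-7.2, of a nematode-specific peptide group, read 161 and 153 CPM in WT, 38.7 and 33.3 CPM in R9Q, 76.2 and 55.1 CPM in R9QG265R and 297 and 252 CPM in R9QT102I.

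The difference between the intragenic suppressors was tested directly, without R9Q or WT libraries in the contrast. edgeR called 12 of 12267 genes (0.0978%) between R9QG265R and R9QT102I, 6 higher and 6 lower, and 5 of the 38 genes above were among the lower ones (13.2% of the 38 and 41.7% of the 12). Both tests used a common estimate of the spread of each gene. The log2 differences were -4.79 for spp-9 (edgeR adjusted p = 0.0182), -3.31 for cpt-3 (edgeR adjusted p = 0.0132), -2.66 for cyp-13B1 (edgeR adjusted p = 0.0132), -2.31 for oac-14 (edgeR adjusted p = 0.0327) and -2.06 for nspg-7.2 (edgeR adjusted p = 0.0305). Against WT, R9QG265R was lower for cpt-3 (-3.72 on the log2 scale, edgeR adjusted p = 0.00407), cyp-13B1 (-2.89, edgeR adjusted p = 0.00407), oac-14 (-2.68, edgeR adjusted p = 0.012) and spp-9 (-3.75, edgeR adjusted p = 0.0171). The count of 12 fell to 0 without either WT library, either R9Q library or R9QT102I replicate 1, to 1 without R9QT102I replicate 2, and was 14 and 8 without R9QG265R replicates 1 and 2 and 61 and 70 without R9Qunc-16 replicates 1 and 2.

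Other genes of the 38, most of them metabolic, also lay between R9Q and WT in R9QG265R. acdh-7, an acyl-CoA dehydrogenase, read 784 and 772 CPM in WT, 211 and 215 CPM in R9Q and 312 and 457 CPM in R9QG265R. The short-chain dehydrogenases dhs-6 (406 and 413, 114 and 115.6 and 167 and 188 CPM in the same order of strains) and dhs-19 (418 and 433, 132 and 124 and 298 and 192 CPM) showed the same order. fmo-5, a flavin-containing monooxygenase, read 84.5 and 81.7, 24.2 and 21.6 and 34.5 and 46.5 CPM, and him-5, needed for crossovers on the X chromosome, 99.2 and 99.8, 19.04 and 20.6 and 29.9 and 25.1 CPM. In this group both R9QG265R values lay above both R9Q values and below both WT values for each gene. F56A4.3 read 146 and 143.7 CPM in WT and 0.146 and 0.257 CPM in R9Q, with 0 counts in both R9QG265R libraries and in all libraries of R9QT102I and R9Qunc-16, where 0 counts allow up to 0.479 and 0.502 CPM in R9QG265R. It is among the 38, but has no gene symbol and was named after its values were seen.

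A few genes lay farther from WT in R9QG265R than in R9Q. T07H8.11 and Y37H2A.14 are among the 38 but have a sequence name and no gene symbol, which puts them outside the rule for named genes, and they were named after their values were seen. T07H8.11 read 3.34 and 0.775 CPM in WT, 36.2 and 42.7 CPM in R9Q and 252 and 360.5 CPM in R9QG265R, and Y37H2A.14 1.52 and 1.70, 29.3 and 24.3 and 131 and 61.3 CPM. Both passed the test against WT, with log2 fold changes of 7.202 (edgeR adjusted p = 0.0102) for T07H8.11 and 5.88 (edgeR adjusted p = 0.0127) for Y37H2A.14. zip-8, a bZIP transcription factor, read 51.6 and 51.9 CPM in WT, 123 and 126 CPM in R9Q and 167 and 166 CPM in R9QG265R (log2 1.69 against WT, edgeR adjusted p = 0.0127). pals-14 and pals-6, of a family known from the worm response to intracellular pathogens, read 4.39 and 2.57 and 9.08 and 8.23 CPM in R9Q and 12.3 and 12.4 and 21.7 and 26.955 CPM in R9QG265R, with 0.607 and 0.465 and 0.758 and 2.48 CPM in WT.

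**Figure D4:**
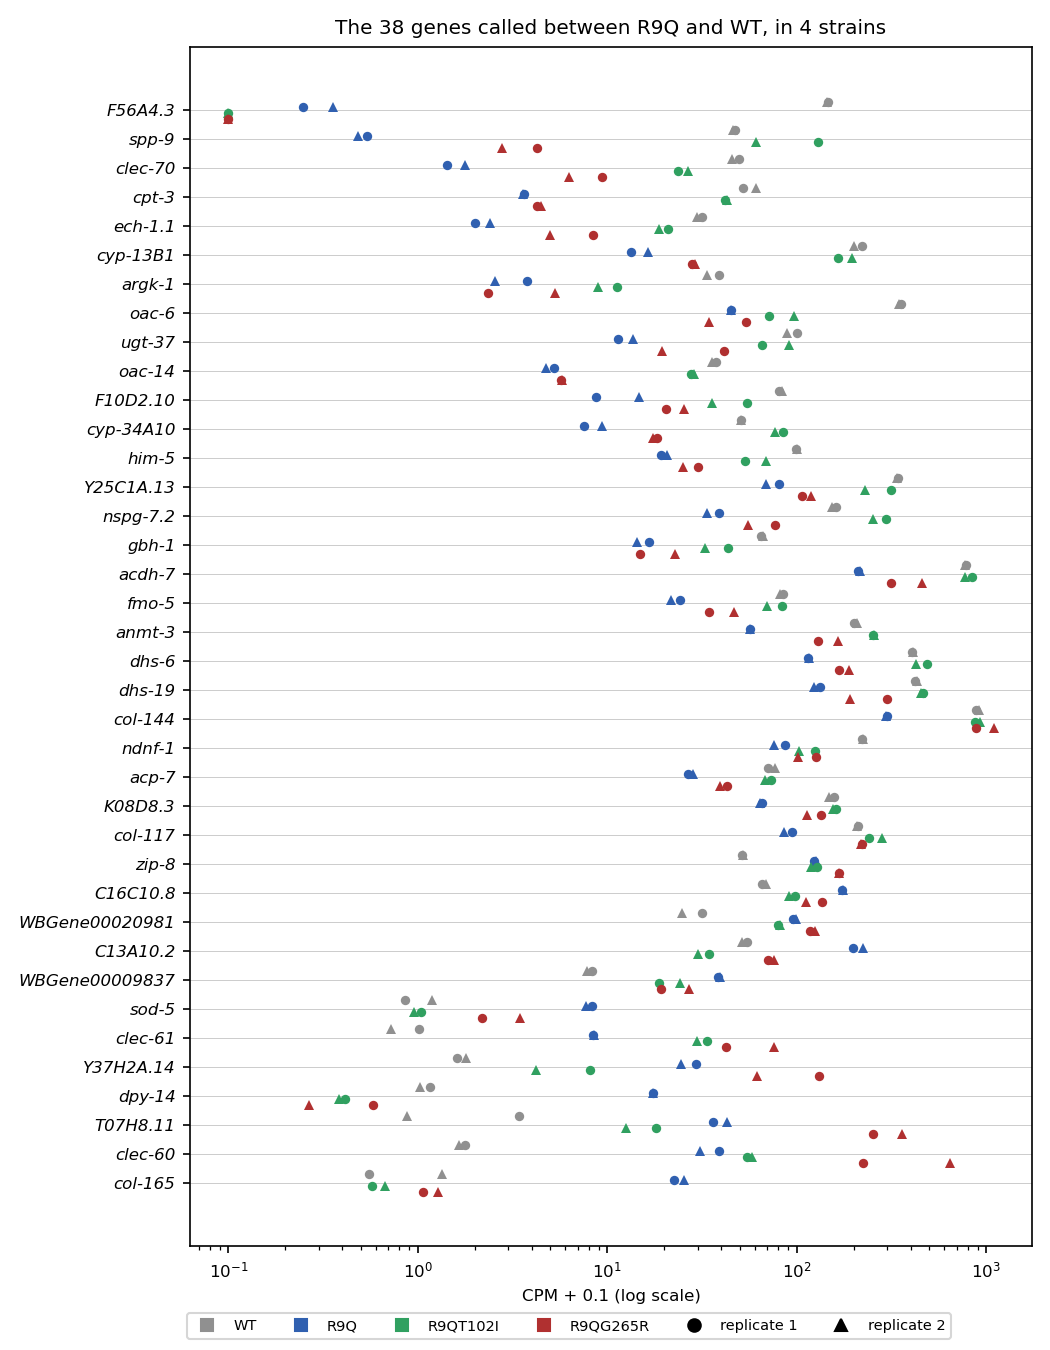
CPM + 0.1 on a log axis for the 38 genes that edgeR called between R9Q and WT, sorted by that difference, with circles for replicate 1 and triangles for replicate 2 of WT (grey), R9Q (blue), R9QT102I (green) and R9QG265R (red). Red points lie beside grey in col-144 and col-117, beside blue in cpt-3 and oac-14, and beyond blue in clec-60, clec-61 and T07H8.11.

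Lists that include genes active in neurons, where UNC-104 works, held more lower than higher genes or were mixed. Neuropeptides travel in dense-core vesicles, a cargo of UNC-104. Several nlp genes, such as those of the nlp-29 cluster, are instead epidermal antimicrobial peptides. The nlp list was not counted without them, so its values are not those of neuronal genes alone. Of 57 of 71 nlp neuropeptide-like genes that could be tested, 38 (66.7%) were lower and 1 (1.75%) was higher in both R9QG265R libraries, against 22.2% lower and 21.2% higher over all tested genes, with a median log2 fold change of -0.51 against 0.01 and no gene past edgeR's test. The median difference from R9Q was -0.66 and -0.43 in replicates 1 and 2, so both libraries lay below. nlp-52 read 50.7 and 51.96 CPM in R9Q and 16.6 and 13.1 CPM in R9QG265R. Of 22 of 31 FMRFamide-like peptide genes tested, 10 (45.5%) were lower and 1 was higher, with a median of -0.28. flp-21 read 257 and 239 CPM in R9Q and 142 and 167 CPM in R9QG265R, flp-28 492 and 478 and 293.3 and 349 CPM, and flp-34 13.03 and 10.16 and 5.43 and 0.335 CPM. These 3 genes were chosen for the widest gaps of their list, and flp-34 was lowest in replicate 2. Relative to WT the same lists had medians of -0.05 for nlp and 0.42 for FMRFamide-like genes. flp-28 itself read 213 and 204 CPM in WT.

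Among vesicle and transmitter genes the shifts were small. Over all tested genes 21.2% were higher, 22.2% lower and 34.2% had libraries on opposite sides. snb-1, the synaptobrevin of synaptic vesicles, read 879 and 798 CPM in R9Q and 658 and 636 CPM in R9QG265R, a log2 fold change of -0.38 (SE 0.24, edgeR adjusted p = 0.737). Of 16 of 23 synaptic vesicle genes tested, 3 were higher, 4 lower and 6 had libraries on opposite sides. Of 11 of 19 genes of transmitter synthesis and loading tested, 5 were lower and 0 higher, with a median of -0.17. snf-11, a GABA transporter, read 230.0 and 228 CPM in R9Q and 196 and 129 CPM in R9QG265R. ace-2, an acetylcholinesterase, read 249 and 253 and 182 and 231 CPM, and dat-1, the dopamine transporter, 77.0 and 69.8 and 65.2 and 60.1 CPM. Ligand-gated ion channels had 20 (27.4%) lower and 3 (4.11%) higher of 73 tested, with a median of -0.19. The lower share is near the 22.2% of all tested genes, while the higher share is well below their 21.2%. Kinesins and cargo adaptors, the family of UNC-104 itself, had 3 higher, 4 lower and 7 opposed of 22 tested. klp-19, a mitotic chromokinesin, read 42.9 and 36.9 CPM in R9Q and 55.7 and 85.6 CPM in R9QG265R, and klp-6, a kinesin-3 of ciliated neurons, 10.8 and 9.65 and 8.47 and 5.19 CPM. Touch receptor genes were evenly spread (3 higher and 3 lower of 10 tested), with the touch-cell tubulin mec-7 at 215 and 207 CPM in R9Q and 237 and 344 CPM in R9QG265R.

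The JNK and p38 kinase pathway, in which UNC-16 is a scaffold, had 15 of 24 genes tested, with a median of -0.30. Of these, 7 (46.7%) were lower, 1 (6.67%) higher and 7 (46.7%) opposed, against 22.2%, 21.2% and 34.2% over all tested genes. The replicate medians were -0.09 and -0.69, so the shift was larger in replicate 2. jun-1, a bZIP transcription factor, read 39.1 and 37.4 CPM in R9Q and 22.04 and 29.6 CPM in R9QG265R, and shc-1, an adaptor protein, 24.7 and 22.4 and 17.3 and 11.4 CPM. kreg-1, a known target of the JNK kinase KGB-1, was named after its values were seen. It read 89.3 and 81.8 CPM in WT, 9.96 and 12.3 CPM in R9Q and 2.72 and 2.01 CPM in R9QG265R, so it was lowest in R9QG265R. The calexcitin cex-1, a calcium-binding protein, read 413 and 406 CPM in R9Q, 119.6 and 58.1 CPM in R9QG265R and 91.6 and 96.5 CPM in WT, with R9QG265R replicate 1 above and replicate 2 below WT.

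Lists of defence genes lay on different sides, as the plot of gene lists shows, where 21.2% of all tested genes were higher and 22.2% lower with a median of 0.01. Of the C-type lectins tested, 46 (39.7%) were higher and 9 (7.76%) lower, with 42 opposed and a median of 0.47. Lysozymes, which digest bacterial walls in the gut, had 7 higher and 0 lower of 11 of 16 tested, 4 of them by at least 2-fold, and a median of 2.06. lys-2 read 235.2 and 239 CPM in R9Q and 673 and 1074 CPM in R9QG265R, and lys-7 253 and 248 and 375 and 1819 CPM. The replicate medians of the lysozymes were 0.58 and 2.60, and the intestinal protease cpr-1 likewise read 261 and 271 CPM in R9Q and 646 and 4049 CPM in R9QG265R, with its largest value in replicate 2. The intestinal regulator elt-2, by contrast, read 170.3 and 172 CPM in R9Q and 161 and 122 CPM in R9QG265R. Epidermal antimicrobial peptides had 18 lower and 0 higher of 34 of 58 tested, 9 by at least 2-fold, with a median of -0.81 and replicate medians of -1.60 and -0.87. nlp-29, which fungal infection and wounding induce in the epidermis, read 196 and 196 CPM in R9Q and 18.1 and 77.3 CPM in R9QG265R, and nlp-25 38.2 and 35.2 and 4.63 and 12.1 CPM. Several nlp genes belong to this list as well as to the neuropeptide list. Genes of the irg and dod infection response had 4 higher and 1 lower of 10 tested, with irg-5 at 35.3 and 32.3 CPM in R9Q and 57.98 and 118 CPM in R9QG265R.

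**Figure D5:**
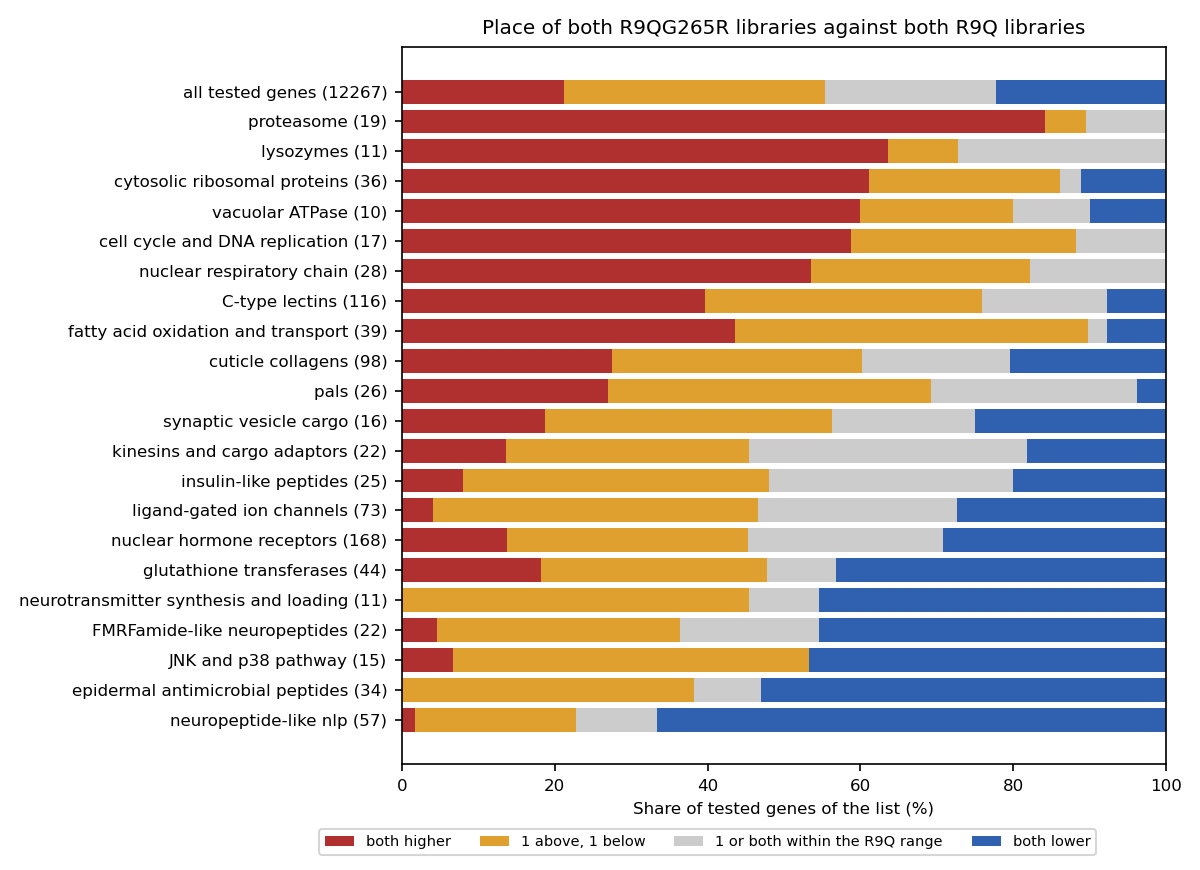
Share of each list's tested genes (number in brackets) in which both R9QG265R libraries lay above both R9Q libraries (red), both below (blue), 1 above and 1 below (orange), or at least 1 within the R9Q range (grey). All tested genes stand at 21.2% red and 22.2% blue, the proteasome has 16 of 19 genes in red, and the nlp genes have 38 of 57 in blue.

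Genes of protein synthesis and breakdown were mostly higher in both libraries. Of 19 of 33 proteasome genes tested, 16 (84.2%) were higher and 0 lower, against 21.2% and 22.2% over all tested genes, with a median log2 fold change of 0.63 against 0.01. pas-5, an alpha subunit of its core, read 123 and 121 CPM in R9Q and 182 and 333 CPM in R9QG265R, and the lid subunit rpn-8 124 and 129 and 179.7 and 271 CPM. WT lay below R9Q for both, at 98.9 and 90.04 CPM for pas-5 and 97.2 and 91.9 CPM for rpn-8. Cytosolic ribosomal protein genes had 22 higher and 4 lower of 36 of 83 tested, with a median of 0.69. rps-4 read 3028 and 3078 CPM in R9Q and 5969 and 9228 CPM in R9QG265R, and rpl-5 3677 and 3595 and 6379 and 8607 CPM. The replicate medians were 0.13 and 1.11 for ribosomal and 0.29 and 0.94 for proteasome genes, both larger in the library with 0.0200% mitochondrial counts, whose part in the result was not tested.

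Energy and growth lists also held more higher than lower genes, against 21.2% higher and 22.2% lower over all tested genes (median 0.01). Nuclear genes of the respiratory chain had 15 higher and 0 lower of 28 of 46 tested, with a median of 0.54 and replicate medians of 0.16 and 0.86. As a share of assigned counts the list took 1.07% and 1.75% in R9QG265R, 1.12% and 1.11% in R9Q and 1.40% and 1.39% in WT. By that share replicate 1 did not exceed R9Q. ucr-2.2, a core subunit of cytochrome bc1, read 173 and 168 CPM in R9Q and 285 and 491 CPM in R9QG265R, and sdha-1 of succinate dehydrogenase 419.5 and 433 and 649 and 956 CPM. The mitochondrial genome itself had 12 of its 14 tested genes opposed between libraries. vha-12, a subunit of the vacuolar ATPase that acidifies organelles, read 848 and 852 CPM in R9Q, 1974 and 1865 CPM in R9QG265R and 1276 and 1269.6 CPM in WT, and of 10 of 20 subunits tested 6 were higher and 1 lower. fat-1, the omega-3 fatty acid desaturase, read 655 and 653 CPM in R9Q, 1611 and 1562 CPM in R9QG265R and 1356 and 1331 CPM in WT, a log2 fold change from R9Q of 1.28 (SE 0.21, edgeR adjusted p = 0.171). Both vha-12 and fat-1 had close R9QG265R values that lay above WT. Fatty acid oxidation and transport had 17 higher and 3 lower of 39 of 80 tested, with 18 opposed. Cell cycle and replication genes had 10 higher and 0 lower of 17 of 36 tested. pcn-1, the sliding clamp PCNA, read 37.2 and 33.1 CPM in R9Q, 93.3 and 202 CPM in R9QG265R and 89.0 and 80.3 CPM in WT, and the helicase subunit mcm-7 23.7 and 23.8, 49.8 and 105 and 45.4 and 46.6 CPM. Basement membrane genes had 6 higher and 0 lower of 9 of 15 tested, such as the laminin lam-3 (5.13 and 5.92 CPM in R9Q, 10.1 and 12.6 in R9QG265R).

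Other detoxification families were more evenly spread than the glutathione transferases, whereas nuclear hormone receptors held more lower than higher genes. Insulin-like peptides held few higher genes, but their lower share did not exceed that of all tested genes. Over all tested genes 21.2% were higher and 22.2% lower. UDP-glucuronosyltransferases, which add sugars to small molecules, had 10 higher, 8 lower and 18 opposed of 50 tested. ugt-41 nevertheless read 13.3 and 12.3 CPM in R9Q, 40.9 and 42.7 CPM in R9QG265R and 35.6 and 37.2 CPM in WT, with a log2 fold change from R9Q of 1.70 (SE 0.31, edgeR adjusted p = 0.192). Cytochromes P450 had 15 higher and 17 lower of 61, and nuclear hormone receptors 23 (13.7%) higher and 49 (29.2%) lower of 168, with a median of -0.08. nhr-120 read 253 and 243 CPM in R9Q and 129.7 and 103 CPM in R9QG265R, and nhr-68 14.9 and 11.3 and 42.97 and 30.1 CPM. Insulin-like peptides had 2 (8%) higher and 5 (20%) lower of 25, with replicate medians of -0.21 and 0.03. Among them daf-28 was higher, at 68.8 and 56.5 CPM in R9Q and 92.2 and 147 CPM in R9QG265R.

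Cuticle collagens had no common side. Of 98 of 156 cuticle collagens tested, 27 (27.6%) were higher, 20 (20.4%) lower and 32 (32.7%) opposed, with replicate medians of -0.32 and 0.59. The shares over all tested genes were 21.2% higher, 22.2% lower and 34.2% opposed. Body-shape collagens had 5 higher, 2 lower and 6 opposed of 16 of 19 tested, with replicate medians of -0.39 and 5.03. dpy-13, a collagen that shapes the body, read 0.439 and 0.64 CPM in R9Q and 2.56 and 422 CPM in R9QG265R, so nearly all of its reads were in replicate 2. The apical matrix gene noah-2 read 2.05 and 2.44 and 5.59 and 209 CPM in the same order. dpy-17, in contrast, read 18.7 and 14.1 CPM in R9Q and 0.479 and 4.35 CPM in R9QG265R, lower in both. col-93 read 40.4 and 35.2 CPM in R9Q, 132 and 364 CPM in R9QG265R and 194 and 192 CPM in WT. Molting genes had 7 higher and 3 lower of 20 of 27 tested, and their median level was 11.6 and 12.1 CPM in R9Q against 8.55 and 66.9 CPM in R9QG265R. The largest opposed displacements went both ways. col-125 read 56.5 and 53.4 CPM in R9Q and 8.79 and 237 CPM in R9QG265R, col-109 5.71 and 5.66 and 0.958 and 40.5 CPM, and tag-297 2.93 and 2.57 and 0 and 42.0 CPM, with replicate 2 high. math-37 (17.9 and 17.5 and 65.7 and 3.35 CPM), ugt-38 (5.71 and 4.24 and 44.6 and 0.837 CPM) and fbxc-58 (14.1 and 11.1 and 51.1 and 0.335 CPM) had replicate 1 high and replicate 2 low.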

How the data were processed

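Total RNA of whole animals was extracted with TRIzol and made into libraries with the KAPA RNA HyperPrep kit, per the labels' protocols. The authors deposited raw read counts per transcript, made with Trim Galore 0.4.4, STAR 2.5.4b, HTSeq 0.9.1 and build ce11, per the submitters' processing notes. Reads shared by transcripts were left out as ambiguous (57.7% to 61.8% of aligned reads), which lowers genes with many transcripts; the counting strand is not given in the sources used here. Summary entries were dropped, and 61451 transcripts were summed to 46907 genes by identifier (56781), by sequence name (4581) or left unmatched (89, 0.0486% of counts), with ce11 annotation from Ensembl.

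edgeR 4.0.16 (R 4.3.3) kept 12267 genes by its expression filter (minimum count 10), scaled by TMM (factors 0.900 to 1.095) and fitted all 10 libraries with 5 residual degrees of freedom. The Benjamini-Hochberg adjustment of its quasi-likelihood test covered every tested gene, and 0.05 was the threshold. The scripts were tested on simulated data. CPM used TMM-scaled library sizes. A gap is the distance on log2(CPM + 0.5) between the nearest libraries of the strains. Intervals and the limit of 3 counts behind a 0 cover counting error only. DESeq2 1.42.0, other scalings, filters and sets of libraries were alternatives.

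Genes were named by a rule: per direction the 12 widest gaps among genes with a symbol and a mean count of at least 50, up to 3 such genes per list, genes with a symbol called between R9Q and WT and on the same side, and the 3 largest opposed displacements per direction; others are marked. The comparison, lists and rule were chosen with earlier results of these data known. A list is described by its counts and median.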

Additional observations from a re-analysis of the deposited data

Results flagged for a closer look

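All 12 genes that edgeR called between R9QG265R and R9QT102I were picked out because the test compared the strains with a second unc-104 change directly. Of these, 6 were lower in R9QG265R. On the log2 scale the differences were -4.79 for spp-9 (edgeR adjusted p = 0.0182), -3.31 for cpt-3 (0.0132), -3.03 for cest-2.1 (0.0306), -2.66 for cyp-13B1 (0.0132), -2.31 for oac-14 (0.0327) and -2.06 for nspg-7.2 (0.0305). cest-2.1, a carboxylesterase gene, read 7.99 and 7.37 CPM in R9QG265R, 48.2 and 77.2 CPM in R9QT102I, 18.3 and 14.8 CPM in R9Q and 15.6 and 15.96 CPM in WT, so R9QT102I stood above the other strains named here.

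The 6 higher genes were C34H4.2 (2.32, edgeR adjusted p = 0.0461), F01D5.2 (2.40, 0.0227), F01D5.1 (2.54, 0.0191), T07D1.3 (2.88, 0.0461), Y38E10A.14 (4.03, 0.0245) and tag-293 (4.96, 0.0166). F01D5.1 and F01D5.2 are neighbours on chromosome II. F01D5.1 read 649 and 687 CPM in R9QG265R, 135 and 94.0 CPM in R9QT102I, 307 and 320.4 CPM in R9Q and 161 and 164.9 CPM in WT, so R9QG265R stood highest. F01D5.2 read 62.0 and 46.2 CPM in R9QG265R, 11.1 and 9.36 CPM in R9QT102I, 55.1 and 62.5 CPM in R9Q and 71.3 and 67.3 CPM in WT, so R9QT102I stood lowest. tag-293 read 26.995 and 44.2 CPM in R9QG265R and 1.41 and 0.85 CPM in R9QT102I, with 20.1 and 26.4 CPM in R9Q, again a low R9QT102I. C34H4.2 read 164 and 180.3 CPM in R9QG265R and 35.96 and 32.8 CPM in R9QT102I, T07D1.3 16.3 and 26.5 and 2.51 and 3.26 CPM, and Y38E10A.14 21.6 and 13.1 and 1.099 and 0.993 CPM. Both strains have a library of low mitochondrial share, and the part of that state in these differences was not tested.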

How the results depend on the processing

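Calls between R9QG265R and R9Q numbered 0 under 3 other scalings, a stricter filter (at least 5 CPM in at least 4 libraries), the 4 libraries alone and the replicate block. They were 460 with no count filter, 126 with a term for the 3 libraries of low mitochondrial share, 229 with DESeq2, 4399 without those 3 libraries (added after seeing the data) and 0 to 13 leaving out each library. In the same order (no filter, term, DESeq2, without the 3), calls against WT were 728, 667, 456 and 5308, against R9QT102I 334, 136, 194 and 3497, and for R9Q against WT 322, 225, 249 and 4224. With the 4 libraries alone they were 0, 0 and 4158, and the stricter filter gave 27 against R9QT102I and 58 for R9Q against WT. Leaving out each library gave 0 to 149, 0 to 70 and 0 to 97. The cause of these shifts was not tested. Genes higher in both libraries numbered 3467 to 5743 and lower 3875 to 6215 when 1 of the 4 libraries was left out, 162 and 230 with a 2-fold gap, and 4268 lower with no filter.

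Replicate numbers were not taken to pair the samples. Deviations of same-numbered libraries correlated at -0.031 for R9Q and R9QG265R, -0.021 for WT and R9QG265R and -0.003 for WT and R9Q, but at 0.613 for R9QG265R and R9Qunc-16. The replicate block gave 0 calls against R9Q, 18 against WT, 7 against R9QT102I and 3 for R9Q against WT. Crossed numbers for R9QT102I (correlation -0.641, added after seeing the data) gave 9.

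Of 118 named genes, no log2 fold change against R9Q reversed in 2357 values, and 264 values passed the threshold that the reported ones missed. Most of these genes were chosen because both R9QG265R libraries lay on the same side of R9Q, and the genes named for opposed libraries were not among them. Few reversals were therefore possible, and their absence is no check of the directions. Calls were lost in 46 of 200 values for the 10 genes named against WT and in 106 of 252 for the 12 against R9QT102I, with none reversed. The medians of the gene lists described as lower or higher kept their sign under the other scalings. With no count filter, those of the JNK and p38 pathway and of the insulin-like peptides were 0. Depth (3 counts equal 0.386 to 0.502 CPM) leaves genes such as dct-19, dpy-14, spp-9 and unc-16 resting on few reads in at least 1 strain.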
